A study of Mus musculus with 31 samples.

Results

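Potassium channel subunit genes were described in RNA-seq counts from CD11b+ brain cells and cortex of mice. The members were the genes whose symbol is Kcn followed by letters and a number, other than Kcnj8, Kcnj10 and Kcnj13, with at least 10 counts in at least 3 libraries of a count table. Of 55401 genes in the tables, 92 had such a symbol, 89 were left without the 3 set aside, and 79 passed the count minimum. The 10 that did not pass were Kcna10, Kcne1, Kcnj1, Kcnj15, Kcnk7, Kcnk15, Kcnk16, Kcnk18, Kcnmb3 and Kcnv2. The members were 29 pore-forming and 9 silent voltage-gated subunits, 10 inward rectifiers, 10 tandem-pore-domain leak channels, 8 calcium- or sodium-activated channels and 13 auxiliary subunits. Of the 79, 78 passed the minimum in the cortex table, 72 in the female CD11b+ table and 65 in the male CD11b+ table, and 65 passed in all of them.

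All mice were on the C57BL/6J background and 13 months old. The knock-in allele (KI, Pki/ki) is the P522R variant of PLCγ2, a phospholipase of microglial receptor signalling, introduced with CRISPR/Cas9. APP/PS1 mice (A+) carry transgenes for a chimeric mouse/human amyloid precursor protein and a human presenilin, with disease mutations, under the mouse prion protein promoter. They form amyloid plaques, and A- mice lack the transgenes. CD11b+ cells, a selection that takes microglia and other myeloid cells, were isolated with magnetic beads from perfused brain, and the cortex libraries came from temporo-occipital cortex tissue. There were 4 A+/Pwt/wt, 4 A+/Pki/ki and 7 A-/Pwt/wt female CD11b+ libraries, 3 A-/Pwt/wt (male WT) and 4 A-/Pki/ki (male KI) male CD11b+ libraries, and 4 A+/Pwt/wt, 4 A+/Pki/ki and 1 A-/Pwt/wt female cortex libraries. Female CD11b+ libraries of A-/Pki/ki mice were not analysed here. Mouse 236 is labelled A-/Pwt/wt among the CD11b+ libraries and A+/Pwt/wt among the cortex libraries, and both libraries were used as labelled.

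Potassium channels let potassium leave the cell and so hold the membrane potential negative. Leak channels and inward rectifiers set the resting potential, voltage-gated channels end action potentials and shape firing in neurons, and calcium- and sodium-activated channels follow the inner ion concentrations. Silent and auxiliary subunits form no channel of their own and change the gating or the transport of pore-forming partners. Microglia at rest have little voltage-gated current: the leak channel made from Kcnk13 sets their resting potential and takes part in surveillance and in potassium efflux upstream of the NLRP3 inflammasome, and Kcnk6 serves such efflux in macrophages.

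Library depth was 16229831 to 25118180 counts for CD11b+ cells and 25226544 to 43129427 counts for cortex. Before the results, 3 CD11b+ libraries stood apart. The A-/Pwt/wt library of mouse 245 had a count for 18259 genes, against 22828 to 24795 in the other 21 CD11b+ libraries, and 14 members were at 0 in it, against 2 to 8 in the others. The summed level of 15 neuronal marker genes was 5743 counts per 1000000 (CPM) in the A-/Pwt/wt library of mouse 223, against 461 to 2275 in the rest of its group. That sum was 2669 CPM in the A+/Pki/ki library of mouse 335, against 222 to 649 in the rest of its group. It was 1089 to 2089 CPM in A+/Pwt/wt, 245 to 353 in male WT, 769 to 1794 in male KI and 12255 to 13822 in cortex, so neuronal RNA was detected in every CD11b+ library. The summed level of 12 microglial markers was 17183 CPM or more in each CD11b+ library and 1012 CPM or less in cortex. The summed level of 9 oligodendrocyte markers was 7483 to 83347 CPM in the CD11b+ libraries, with means of 41754 CPM in A+/Pwt/wt CD11b+ cells and 4538 CPM in A+/Pwt/wt cortex, so that it was above the microglial sum on average in A+/Pwt/wt (25374 CPM).

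The promoters of 3 members that the results turn on are shown, Kcnk13 as the channel known from microglia, and Kcnj2 and Kcna3 as members whose level differed between groups of CD11b+ libraries. Each is the 250 bases before the RefSeq start site on GRCm38.p6, 5′ to 3′ on the strand of the gene. Capitals mark the letters GAGGAA, the core that the myeloid factor PU.1 and other ETS factors bind, or TTCCTC, the same core on the other strand. The positions are chr12:99964249-99964498 on the plus strand for Kcnk13, chr11:111065914-111066163 on the plus strand for Kcnj2, and chr3:107035912-107036161 on the plus strand for Kcna3.
Kcnk13: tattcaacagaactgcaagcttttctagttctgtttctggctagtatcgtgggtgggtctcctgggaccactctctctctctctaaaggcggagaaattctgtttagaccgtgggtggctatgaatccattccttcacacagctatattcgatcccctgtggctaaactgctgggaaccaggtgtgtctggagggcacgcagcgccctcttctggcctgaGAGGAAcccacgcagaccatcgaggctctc
Kcnj2: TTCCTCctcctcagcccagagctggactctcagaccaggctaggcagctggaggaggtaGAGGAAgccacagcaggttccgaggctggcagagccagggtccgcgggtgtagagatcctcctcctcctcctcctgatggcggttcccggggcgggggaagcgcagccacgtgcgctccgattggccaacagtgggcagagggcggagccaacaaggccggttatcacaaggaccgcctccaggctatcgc
Kcna3: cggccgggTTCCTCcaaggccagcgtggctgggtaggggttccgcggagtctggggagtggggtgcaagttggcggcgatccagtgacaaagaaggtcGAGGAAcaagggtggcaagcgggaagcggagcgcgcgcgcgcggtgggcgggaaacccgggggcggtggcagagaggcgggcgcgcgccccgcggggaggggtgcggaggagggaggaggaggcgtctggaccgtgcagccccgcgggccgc

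The core occurred 1 time in the promoter of Kcnk13, and 2 times in those of Kcnj2 and Kcna3, 1 on each strand. Of other members higher in CD11b+ cells than in cortex, Kcnn4, Kcne2 and Kcnmb1 had it 0 times and Kcne4 1 time. Kcnk1, which was higher in cortex, had it 2 times. A promoter was matched for 56 of the 79 members, and 18 of these (32.1%) held the core in at least 1 promoter, against 25.9% of all 27025 genes with a promoter. By promoter, 20 of 81 of the members' promoters (24.7%) and 7639 of all 32851 (23.3%) held it. These shares are a description and were not tested. Kcnk6, Kcnk9 and Kcnh3 had no entry.

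In A+/Pwt/wt mice most potassium channel genes were lower in CD11b+ cells than in cortex, and a small set was higher. Of 76 members tested, 9 were higher in CD11b+ cells (11.8%) and 62 were higher in cortex (81.6%), by edgeR's quasi-likelihood test with an adjusted p under 0.05. Over all 18541 genes tested, 37.7% were higher in CD11b+ cells and 40.2% were higher in cortex. The median log2 fold change, CD11b+ over cortex, was −3.11 over the members and −0.06 over all genes. The CD11b+ cells came from whole brain and the cortex from one region, and preparation and count table differed with the tissue, so that these cannot be told apart from cell type. In bulk libraries, fewer cells of a type and less RNA per cell cannot be told apart either. With libraries scaled by total counts alone, the members were 9 higher and 64 lower, all genes were 5435 higher and 9127 lower against 6996 and 7447 in the main fit, and the median of all genes moved to −0.42.

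The excess in cortex held in every class. Among pore-forming voltage-gated subunits 2 of 27 tested were higher in CD11b+ cells and 24 lower, with a median log2 fold change of −3.41. Silent subunits, which modify neuronal delayed rectifiers, were lowest, with 0 of 9 higher, 8 lower and a median of −5.18. Inward rectifiers gave 1 of 10 higher and 7 lower (median −3.02), calcium- or sodium-activated channels 1 of 8 higher and 7 lower (median −3.03), and auxiliary subunits 3 of 12 higher and 9 lower (median −2.62). Leak channels had the median nearest to 0, at −1.41, with 2 of 10 higher and 7 lower.

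**Figure D1:**
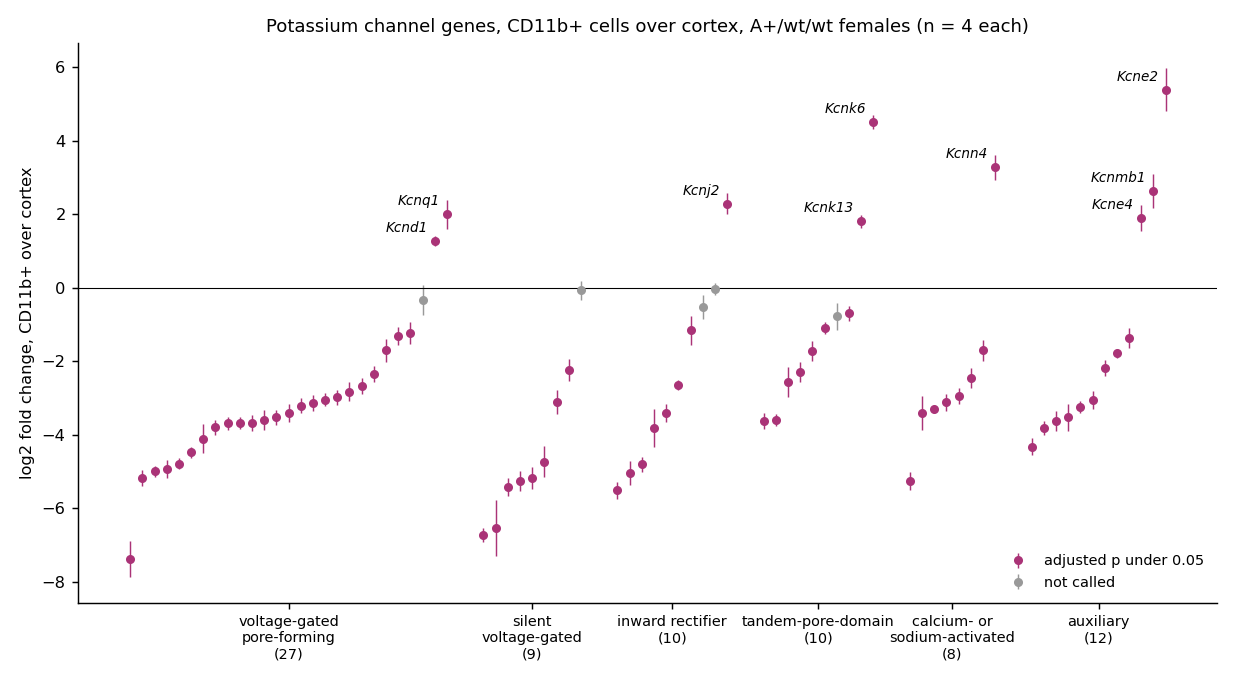
Log2 fold change of each tested member, CD11b+ over cortex in A+/Pwt/wt mice, with its standard error, by channel class; coloured points passed the test and grey points did not. The 9 members above 0 that passed are labelled, and the other called members, 62 of them, lie below 0.

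The leak channels Kcnk6 and Kcnk13 were among the members higher in CD11b+ cells. Kcnk6 (chromosome 7, 29221926 to 29232515, minus strand, positions on GRCm38) gave 92.9, 158, 125 and 141 CPM in the 4 A+/Pwt/wt CD11b+ libraries and 5.28 to 6.64 CPM in the 4 cortex libraries. The groups were far apart, and Kcnk6 was 22.8-fold higher in CD11b+ cells (log2 fold change 4.51 ± 0.18 SE). Kcnk13 (chromosome 12, 99964499 to 100062682, plus strand) gave 31.8, 46.4, 37.0 and 45.6 CPM in these libraries and 9.999 to 15.5 CPM in cortex, a 3.51-fold difference (log2 1.81 ± 0.17). Cortex is a tissue that holds microglia itself, and both groups were well separated. The median log2 fold change of the 12 microglial markers was 4.83 in the same comparison. What part of the Kcnk13 level in cortex came from microglia was not tested. The other leak channels tested fell on the cortex side or, for Kcnk5, did not pass (log2 −0.78).

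Kcnn4 (chromosome 7, 24370263 to 24386690, plus strand) forms the calcium-activated channel of immune cells and red cells. It was low in all libraries, at 2.34, 4.45, 4.64 and 5.10 CPM in A+/Pwt/wt CD11b+ cells and 0.214 to 0.566 CPM over all 9 cortex libraries. The groups did not overlap, and the difference was 9.70-fold (log2 3.28 ± 0.35). Kcnj2 (chromosome 11, 111066164 to 111076821, plus strand), the strong inward rectifier also found in muscle, gave 56.6, 174, 115 and 129 CPM against 21.3 to 28.8 CPM in cortex (4.90-fold, log2 2.29 ± 0.28). Kcnd1 (chromosome X, 7822289 to 7838280, plus strand), a subunit of fast-inactivating A-type channels, gave 21.4, 31.3, 26.8 and 24.8 CPM against 9.69 to 13.8 CPM over all cortex libraries (2.42-fold, log2 1.28 ± 0.14).

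The remaining members higher in CD11b+ cells were genes best known from other tissues. Kcne2 encodes an auxiliary subunit of choroid plexus and heart and had the largest fold, 42.0 (log2 5.39 ± 0.58). Its level was 20.2, 3.92, 10.5 and 21.9 CPM in A+/Pwt/wt CD11b+ cells and 0.101 to 2.17 CPM in cortex. In the same CD11b+ libraries the summed level of 5 choroid plexus and ependymal markers, led by Ttr, was 2927, 606, 1414 and 2808 CPM, so the lowest Kcne2 stood beside the lowest marker sum. The part of these cells in the result was not tested. Kcnmb1, the auxiliary subunit of smooth muscle calcium-activated channels, was 6.24-fold higher, Kcnq1, a delayed rectifier of heart and epithelia, 4.00-fold higher, and Kcne4, an auxiliary subunit that inhibits voltage-gated channels, 3.72-fold higher. All 9 endothelial and mural markers were higher in CD11b+ cells too (median log2 2.86), and their part in the Kcnmb1 result was not tested. Kcnq1 overlaps Kcnq1ot1 on the other strand, and the counting did not use strand, so reads of the shared bases cannot be told apart. In all, 24 of the 79 members overlap a gene on the other strand, Kcnk1, Kcnk3 and Kcnh3 among them.

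The largest excess in cortex was that of neuronal channel genes. Among them were the silent subunits Kcnv1 (log2 fold change −6.72), Kcns2 (−5.42) and Kcng1 (−5.26), the neuronal inward rectifier Kcnj4 (−5.51), the sodium-activated channel Kcnt2 (−5.26) and the delayed rectifier Kcnb2 (−5.18). Kcnh5, a voltage-gated subunit of the ether-à-go-go family, had 1036 counts in the 4 A+/Pwt/wt cortex libraries and 3 in the 4 CD11b+ libraries, a ratio of 198 (exact 95% interval 67.6 to 963, for counting error only). The silent subunit Kcng3 had 231 counts in cortex and 1 in CD11b+ cells, a ratio of 133 (23.6 to 5259). Kcnh5 and Kcng3 met the count minimum only in the cortex table, so that their membership depended on their level there. Of the 76 members tested, 66 reached the minimum in each group alone, with 9 higher and 53 lower in CD11b+ cells. Another 10, Kcnb2, Kcnh5 and Kcng3 among them, reached it only in the cortex libraries, and 9 of these were lower. Kcnh3, a voltage-gated subunit of forebrain neurons, gave 135 to 172 CPM in cortex and 19.3, 11.1, 21.03 and 17.8 CPM in A+/Pwt/wt CD11b+ cells (log2 −3.04, adjusted p = 5.66e-08 by edgeR). Kcnh3 shares exon bases with Mcrs1 on the other strand, and reads of the shared bases cannot be told apart by strand. The extent of this overlap was not measured. The 5 members that did not pass in either direction were Kcna3 (log2 −0.33), Kcng4 (−0.07), Kcnj12 (−0.03), Kcnj16 (−0.52) and Kcnk5. Kcna3, the delayed rectifier of lymphocytes and of activated microglia, gave 1.02, 3.97, 6.33 and 3.70 CPM in A+/Pwt/wt CD11b+ cells and 3.52 to 7.02 CPM over all cortex libraries, and the groups overlapped.

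A second set of mice, A+/Pki/ki, gave the same picture without sharing a library with the first. There 72 of 77 members passed, 9 higher in CD11b+ cells and 63 higher in cortex, against 36.8% and 39.8% of all genes. The median was −3.74 over members and −0.08 over all genes. Of the 77 members tested, 58 reached the count minimum in each group alone, with 9 higher and 45 lower in CD11b+ cells. Another 19 reached it only in cortex, and 18 of these were lower, so that their being tested depended on their cortex level. All 9 members higher in CD11b+ cells passed in both genotypes, and so did 61 of the 62 higher in cortex. The exception was Kcnk12, a close relative of Kcnk13 that gives little or no current alone, at log2 −0.11 (adjusted p = 0.527 by edgeR). Without mouse 335, 73 members passed, 8 higher and 65 lower. With total counts alone the members were 7 higher and 65 lower and all genes 5468 higher and 8640 lower, with the median of all genes at −0.37.

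**Figure D2:**
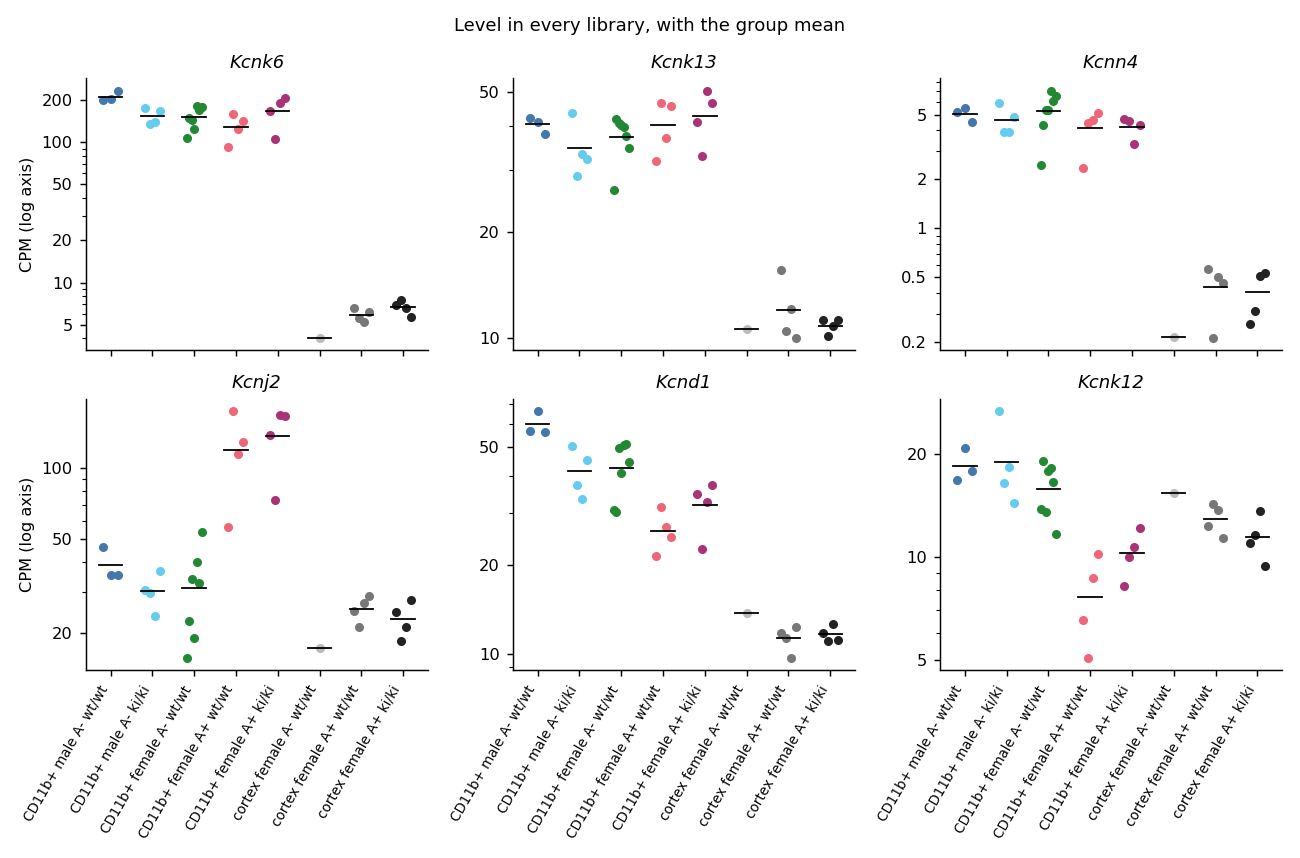
CPM on a log axis of Kcnk6, Kcnk13, Kcnn4, Kcnj2, Kcnd1 and Kcnk12 in each library of the 8 groups, with a bar at the group mean. Kcnk6 lies at 92.9 CPM or more in every female A+/Pwt/wt CD11b+ library and at 7.46 CPM or less in cortex. Over all groups, the cortex points of Kcnk12 lie within the range of its CD11b+ points. In A+/Pwt/wt alone, Kcnk12 lies at 5.07 to 10.2 CPM in CD11b+ cells and higher, at 11.3 to 14.3 CPM, in cortex.

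Per length, as CPM divided by the exon length in kilobases (RPKM), Kcnk6 was the highest member in all 5 CD11b+ groups. In A+/Pwt/wt CD11b+ cells it was at 31.1 ± 6.64 RPKM (SD, n = 4), followed by Kcnj2 at 21.8 ± 8.88, the voltage-gated auxiliary subunit Kcnab2 at 15.7 ± 4.92 and Kcnk13 at 12.9 ± 2.27. Each of these means lay within the sum of both SDs of the next. The members were measured in the same 4 libraries, so these SDs do not decide their order, which was not tested. Kcnip3 (9.92 RPKM), a calcium-binding partner of A-type channels, Kcne2 (7.99), the leak channel Kcnk1 (5.92) and Kcnd1 (4.93) completed the first 8. In cortex of the same genotype the order was another one, with Kcnab2 at 74.6 ± 3.83 RPKM, Kcnj4 at 62.2 ± 6.66, Kcnip2 at 56.0 ± 7.60, Kcnip3 at 35.7 ± 2.10 and Kcnk1 at 30.0 ± 2.97. Kcnab2, Kcnip3 and Kcnk1 therefore ranked high in CD11b+ libraries while being 4.54-, 3.44- and 4.86-fold higher in cortex. In male WT libraries, the CD11b+ group with the lowest mean neuronal marker sum, Kcnk6 stood at 50.9 RPKM, Kcne2 at 13.9, Kcnk13 at 13.0 and Kcnd1 at 11.3.

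The level of the members higher in cortex moved with neuronal markers among the CD11b+ libraries. As a percent of the A+/Pwt/wt cortex level, the median of the 62 members was 8.83% in A+/Pwt/wt, 5.81% in A+/Pki/ki, 10.2% in female A-/Pwt/wt, 3.22% in male WT and 8.80% in male KI CD11b+ cells. The median of the 15 neuronal markers, in the same order, was 6.55%, 3.75%, 7.31%, 1.19% and 5.19%. The members' median was above that of the markers in all 5 groups, and both were lowest in male WT. Kcnk12, Kcnk3 and Kcnj14 were among the members that lay above the highest neuronal marker in all 5 groups. Kcnk12 was at 59.1% of the cortex level in A+/Pwt/wt, 79.7% in A+/Pki/ki, 122% in female A-/Pwt/wt, 143% in male WT and 147% in male KI cells. These percentages are given as a description, and no test was made of them.

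**Figure D3:**
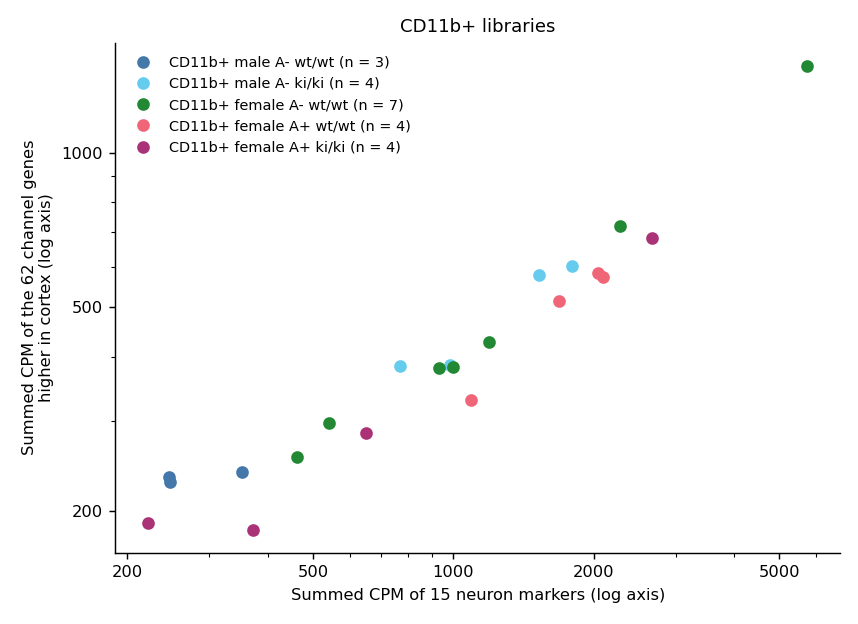
Summed CPM of the 15 neuronal markers (x, log axis) and of the 62 members higher in cortex (y, log axis) in each of the 22 CD11b+ libraries, coloured by group. The male WT libraries and A+/Pki/ki mouse 405 lie at the low end and mouse 223 at the high end of the marker sum. The members' sum is mostly higher where the marker sum is, with exceptions at the low end. The lowest members' sum (184 CPM) is that of A+/Pki/ki mouse 394, whose marker sum (372 CPM) is above those of male WT.

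In male CD11b+ cells without transgenes, many channel genes that are higher in cortex were higher with the KI, and 3 members were lower. Of 65 members tested, 29 rose (44.6%) and 3 fell (4.62%) in male KI against male WT, whereas 11.1% of all genes rose and 5.26% fell (edgeR, adjusted p under 0.05). The median log2 fold change, KI over WT, was 0.99 over the members and −0.00 over all genes. In the same libraries 15 of 15 neuronal markers rose (median 2.12), 10 of 10 astrocyte markers (median 1.20), 6 of 9 oligodendrocyte markers, and 3 of 9 endothelial and mural markers rose, whereas of 12 microglial markers 0 rose and 1 fell (median −0.36). The part of these cells in the members' rise was not tested. With total counts alone 29 members rose and 4 fell, 1582 genes rose and 1590 fell, and the median of all genes was −0.12.

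The rise was seen in each class. It took in 12 of 23 pore-forming and 4 of 7 silent voltage-gated subunits, 4 of 8 inward rectifiers, 3 of 9 leak channels, 3 of 7 calcium- or sodium-activated channels and 3 of 11 auxiliary subunits. Of the 65 members tested, 53 reached the count minimum in each group alone, and of these 20 rose and 3 fell. Another 11 reached it only through the KI libraries, where they were high, and 9 of them rose: Kcnc2, Kcng1, Kcnj3, Kcnmb4 and Kcnv1 are among these 11, so that their being tested depended on their KI level. The largest rises were those of the silent subunit Kcng1 (log2 3.40 ± 0.67, adjusted p = 0.0109 by edgeR), the neuronal auxiliary subunit Kcnmb4 (2.94 ± 0.54), the G protein-gated inward rectifier Kcnj3 (2.72 ± 0.35), Kcnh3 (2.65 ± 0.31), the fast-spiking interneuron channel Kcnc2 (2.40 ± 0.51) and Kcnj4 (2.19 ± 0.40). The call of Kcnc2 was lost without WT mouse 102 (adjusted p = 0.0563 by edgeR) and without WT mouse 94 (adjusted p = 0.0573). The silent subunit Kcnv1, which also rose (adjusted p = 0.0140 by edgeR), had 44 counts in the 4 KI libraries and 3 in the 3 WT libraries. That is a ratio of 12.1 (exact 95% interval 3.87 to 60.7, for counting error only and not for differences between mice). Kcnh3 gave 15.4, 18.8, 25.4 and 11.4 CPM in male KI and 3.76, 2.62 and 2.13 CPM in male WT. The KI levels of Kcnh3 were all above the WT levels and all far under the 135 CPM of the lowest cortex library.

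By tissue class, 52 of the 62 members higher in cortex were tested, of which 50 were above 0, 27 rose and 0 fell, with a median of 1.21. These 52 include all 11 members that reached the count minimum only through the KI libraries, of which 9 rose. Over all genes 11.1% rose and 5.26% fell. Of the 9 members higher in CD11b+ cells, 4 were above 0, 0 rose and 2 fell, with a median of −0.12. Of the 5 without a tissue call, 4 were tested, and Kcng4 (log2 1.62) and Kcnj16 (1.10) rose whereas Kcna3 fell. The call of Kcng4 was lost without WT mouse 102 (adjusted p = 0.0537 by edgeR), and that of Kcnj16 without WT mouse 101 (0.0544) or 102 (0.0625). The tissue comparison shares no library with the male comparison.

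**Figure D4:**
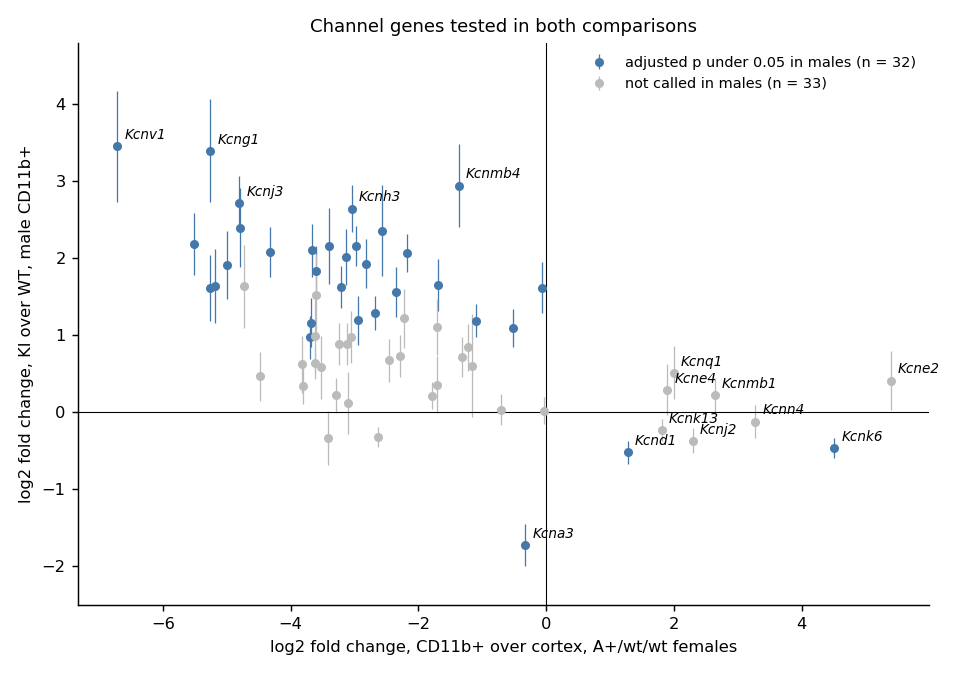
Log2 fold change, male KI over male WT (y), against log2 fold change, CD11b+ over cortex in A+/Pwt/wt (x), for the 65 members tested in male CD11b+ cells; blue points, 32 of them, passed the test in males. Called points above 0 all lie left of 0 on the x axis, on the cortex side, and the 3 called points below 0 are Kcna3, Kcnd1 and Kcnk6.

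The members that fell with the KI were Kcna3, Kcnd1 and Kcnk6. Kcna3 (chromosome 3, 107036169 to 107038070, plus strand) gave 1.33, 1.56, 1.13 and 1.34 CPM in male KI and 5.93, 3.39 and 4.02 CPM in male WT. The groups were well apart (log2 −1.73 ± 0.27, adjusted p = 0.00540 by edgeR), and the call remained without any 1 library, with an adjusted p of 0.00335 to 0.0224. Kcnd1 gave 50.2, 37.3, 33.3 and 45.4 CPM against 56.6, 66.04 and 56.1 CPM (log2 −0.52 ± 0.15, adjusted p = 0.0439 by edgeR). Kcnk6 gave 175, 134, 138 and 166 CPM against 199, 202 and 232 CPM (log2 −0.46 ± 0.12, adjusted p = 0.0347 by edgeR). In neither gene did the groups overlap, but the calls of Kcnd1 and Kcnk6 each remained in only 1 of the 7 fits that left out 1 library, with adjusted p of 0.00668 to 0.241 and 0.00617 to 0.222. The microglial marker median was −0.36 in the same libraries, and the part of cell composition in the falls of Kcnd1 and Kcnk6 was not tested.

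Kcnk13 gave 43.6, 28.9, 33.3 and 32.3 CPM in male KI and 42.2, 41.2 and 38.1 CPM in male WT. Its groups overlapped through the KI library of mouse 104, and the difference did not pass (log2 −0.23, adjusted p = 0.299 by edgeR). Without mouse 104 it was −0.36 with an adjusted p of 0.0178. Kcnj2 (log2 −0.37, adjusted p = 0.149) and Kcnn4 (−0.12, adjusted p = 0.724) did not pass either. The number of members called without 1 library ran from 16 without WT mouse 102 to 46 without KI mouse 104, with 20 without KI mouse 139, 21 without WT mouse 94 and 22 without WT mouse 101. The calls over all genes also moved, from 894 of 16193 without mouse 102 to 5439 of 16242 without mouse 104.

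The channels that work upstream of the inflammasome were read beside 11 genes of that pathway, chosen as purinergic receptors (P2ry12, P2ry13, P2rx7, P2rx4) and inflammasome components or products (Nlrp3, Pycard, Casp1, Nek7, Gsdmd, Il1b, Il18). All 11 were higher in CD11b+ cells than in cortex in A+/Pwt/wt (median log2 3.94) and in A+/Pki/ki (4.03) mice. In male KI cells 2 fell and 0 rose, with a median of −0.41, beside 5.26% of all genes that fell. The 12 microglial markers, of which 0 were above 0, had a median of −0.36 in the same libraries, while neuronal and astrocyte markers rose, and the part of cell composition in these falls was not tested. Nlrp3, the sensor that potassium efflux activates, fell from a mean of 93.7 to 63.3 CPM (log2 −0.57, adjusted p = 0.0179 by edgeR). P2rx7, the ATP-gated cation channel that opens that efflux, fell from 185 to 135 CPM (log2 −0.46, adjusted p = 0.0191 by edgeR). None of the 11 passed in the other comparisons of CD11b+ cells or cortex.

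In APP/PS1 mice the KI gave no call among potassium channel genes. In female CD11b+ cells 0 of 68 members passed for A+/Pki/ki over A+/Pwt/wt, as did 0% of all 17039 genes by edgeR. At an unadjusted p under 0.05 there were 3 members, Kcnt1 and Kcnh2 among them, and 575 genes, and DESeq2 called 7 genes and 0 members. Kcnt1 and Kcnh2 were named after their values were seen. The members' median was −0.62, with 9 of 68 above 0, beside a median of 0.00 over all genes and −0.85 over the neuronal markers. Without mouse 335 no member passed either, but 44 of 67 members and 4594 genes were then at an unadjusted p under 0.05, the members' median was −1.38 and the lowest adjusted p over all genes was 0.0754 in place of 0.853, so these values rested on 1 library. Kcnk13 gave 41.0, 33.0, 50.4 and 46.5 CPM in A+/Pki/ki and Kcnk6 167, 104, 189 and 206 CPM, and both ranges overlapped those of A+/Pwt/wt given above. In cortex 0 of 78 members and 0% of all 18640 genes passed, 1 member (Kcnt2, named after its value was seen) and 514 genes were at an unadjusted p under 0.05, and DESeq2 called 11 genes and 0 members. The members' median in cortex was −0.04, and Kcnk13 lay at 10.1 to 11.2 CPM in A+/Pki/ki against 9.999 to 15.5 CPM in A+/Pwt/wt.

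The KI effect in males was set against that in APP/PS1 females in a single fit. The difference passed for 0 of 69 members and 0% of all 17619 genes by edgeR, with a lowest adjusted p of 0.143 among the members. At an unadjusted p under 0.05 there were 41 members and 4664 genes, and the median of the difference, male minus female, was 1.72 over the members and 0.01 over all genes. DESeq2 called 26 members, all with a higher effect in males, and 1167 genes. Without A+/Pki/ki mouse 335, edgeR called 48 members, 45 higher and 3 lower in males, and 6199 genes, so this count rested on 1 library. Sex, transgenes and batch label change together between the 2 effects and cannot be told apart.

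Amyloid was compared in female CD11b+ cells of A+/Pwt/wt and A-/Pwt/wt mice. Of 71 members, Kcnj2 was higher and Kcnk12 lower in A+/Pwt/wt (1.41% each way), beside 1.01% of all genes higher and 0.282% lower. The medians were −0.11 over the members and −0.03 over all genes, but without A-/Pwt/wt mouse 223 the members' median was 0.22, with 46 of 71 above 0 in place of 25, and with limma it was 0.06, so its direction was not stable. The A+ libraries carry 1 batch label and the A- libraries another, so that batch and transgenes cannot be told apart. The A+/Pwt/wt libraries are those of the tissue comparison and of the KI comparison in APP/PS1 mice. Of the 15 neuronal markers 0 passed, with a median of 0.01, and of 6 markers of border macrophages 2 were lower.

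Kcnj2 gave 15.8 to 53.4 CPM, with a median of 32.7, in the 7 A-/Pwt/wt libraries and 56.6, 174, 115 and 129 CPM in A+/Pwt/wt. The groups did not overlap, although the lowest A+ library was close to the highest A- library, and Kcnj2 was 3.82-fold higher (log2 1.93 ± 0.34, adjusted p = 0.0151 by edgeR). The call was lost without A+/Pwt/wt mouse 367 (adjusted p = 0.0768) and without mouse 380 (adjusted p = 0.0613), and it remained in the other 9 of 11 fits that left out 1 library. A+/Pki/ki libraries gave 139, 73.4, 168 and 167 CPM, also all above the A- libraries, whereas the male A- libraries gave 23.8 to 46.5 CPM. Kcnj2 was thus high in both groups of APP/PS1 CD11b+ libraries and low in the other 3 groups, while in cortex it lay at 21.3 to 28.8 CPM in A+/Pwt/wt and at 17.4 CPM in the single A-/Pwt/wt library.

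Kcnk12 (chromosome 17, 87745801 to 87797994, minus strand) gave 11.6 to 19.0 CPM, with a median of 16.6, in A-/Pwt/wt and 6.53, 5.07, 8.68 and 10.2 CPM in A+/Pwt/wt. The groups did not overlap (log2 −1.06 ± 0.21, adjusted p = 0.0290 by edgeR), but the call remained in only 3 of 11 fits without 1 library, with an adjusted p of 0.0159 to 0.116. Kcnd1, the A-type subunit, gave 30.2 to 51.3 CPM in A-/Pwt/wt and 21.4 to 31.3 CPM in A+/Pwt/wt, and did not pass (log2 −0.70, adjusted p = 0.129 by edgeR). The leak channel Kcnk13 gave 26.3 to 41.9 CPM in A-/Pwt/wt, against 31.8 to 46.4 CPM (log2 0.11, adjusted p = 0.955 by edgeR). Kcnk6 gave 108 to 182 CPM (log2 −0.22) and Kcnn4 2.46 to 7.02 CPM (log2 −0.36) in A-/Pwt/wt, and neither passed.

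Kcnk9 was named after its values were seen. It encodes an acid-sensitive leak channel of neurons (chromosome 15, 72501089 to 72546340, minus strand) and was at 63.5 to 92.8 CPM in cortex. In CD11b+ cells it gave 10.8, 22.4, 19.6 and 35.9 CPM in A+/Pwt/wt and 8.53, 2.40, 2.05, 3.34, 1.72, 1.69 and 0 CPM in A-/Pwt/wt, where the 8.53 CPM came from mouse 223 and the 0 from mouse 245, where 3 counts are 0.127 CPM. The groups did not overlap, and the difference missed the threshold (log2 3.03 ± 0.68, adjusted p = 0.0529 by edgeR). Without mouse 223 it was 3.56 with an adjusted p of 0.00857, without mouse 245 it was 2.79 with 0.0143, and over the 11 fits without 1 library the adjusted p ran from 0.00857 to 0.245. The A+/Pki/ki libraries gave 13.0, 11.4, 11.95 and 18.4 CPM and the male libraries 0.921 to 3.63 CPM. In A-/Pwt/wt the highest Kcnk9 stood beside the highest neuronal marker sum (mouse 223, 5743 CPM), and in male KI likewise (3.63 CPM in mouse 139, with 1794 CPM). In A+/Pki/ki the highest Kcnk9 (18.4 CPM) stood beside the lowest marker sum (mouse 405, 222 CPM). The part of neuronal RNA in the difference was not tested.

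Kcna3 gave 0 to 2.17 CPM in A-/Pwt/wt against 1.02 to 6.33 CPM in A+/Pwt/wt, with overlap (log2 2.09 ± 0.77, adjusted p = 0.303 by edgeR). A+/Pki/ki libraries gave 4.25, 1.38, 6.91 and 7.99 CPM. Without mice 223 and 245, a choice made after seeing the data, 4 members passed, Kcnj2 (log2 1.98) and Kcnk9 (3.29) higher and Kcnk12 (−1.19) and Kcnd1 (−0.79) lower in A+/Pwt/wt, and 481 genes passed in all.

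**Figure D5:**
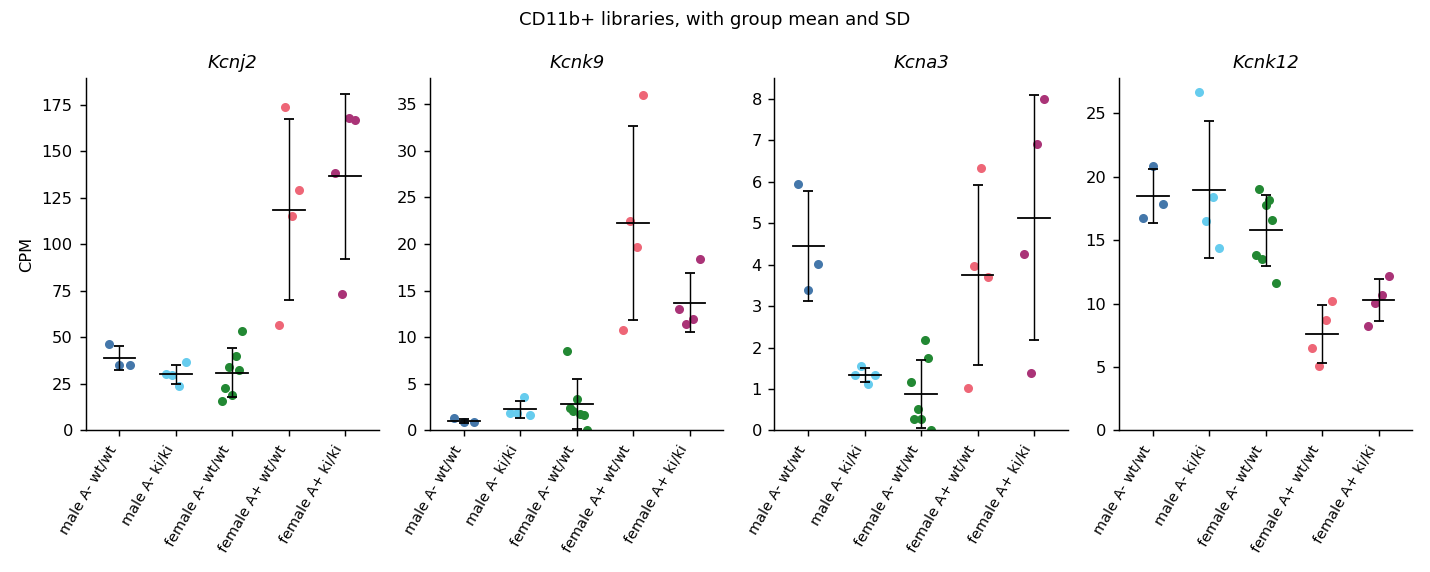
CPM of Kcnj2, Kcnk9, Kcna3 and Kcnk12 in each library of the 5 CD11b+ groups, with mean and SD. Kcnj2 and Kcnk9 lie higher in both A+ groups than in each A- group, and Kcnk12 lies lower in A+/Pwt/wt than in female A-/Pwt/wt.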

How the data were processed

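The submitters' processing notes name FastQC 0.11.7, Trimmomatic 0.39, STAR 2.7.9a, featureCounts 2.12.0 and R 4.2.2. The authors deposited counts per gene of uniquely mapped reads, not split by strand, and normalized values on a log2-like scale (variance-stabilized), used here only in limma. Gene positions and lengths came from GENCODE M21, whereas the paper names M25 for its alignment. All 79 member identifiers were found in M21, 73 of them with the same version number. Kcnab2 and Kcnip2 were among those with another version, so their RPKM may rest on a different exon length. Members and lists were chosen with earlier results of these data known.

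Each comparison was fitted in R 4.3.3 with edgeR 4.0.16 (TMM scaling, quasi-likelihood test, two-sided, no covariates) on every gene that reached 10 counts in 3 or more of its libraries, with Benjamini-Hochberg adjustment over all genes tested and a threshold of 0.05. CPM used TMM-scaled depths, and RPKM divided them by exon length. Alternatives were DESeq2 1.42.0, DESeq2 size factors, total counts alone, other filters, limma 3.58.1, all groups of a table, and leaving out each library. The labels give 1 mouse per library. Members named were those of the rule (Kcnk13, Kcnk6, Kcnn4, Kcnh3), Kcna3, Kcnj2, those with the largest called tissue or genotype differences without overlap, and those with the highest RPKM. The test was checked on simulated counts. Depth limits members under about 1 CPM. Values of some members are not reported here.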

Additional observations from a re-analysis of the deposited data

Results flagged for a closer look

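For the 27 members named by rule and for Kcnk9, which was chosen after its values were seen, the highest and lowest library of each group of 4 to 7 libraries were tested for a gap to the rest (Dixon's test). Of 168 pairs of a member and a group, 23 (13.7%) held such a library. Chance gives about 1 in 20 for independent values, but the members were measured in the same libraries. The share is therefore a description and no test against chance.

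In CD11b+ cells, 9 of the 23 were the A+/Pki/ki library of mouse 335, the highest of its group each time. It gave 144.8 CPM of Kcnab2 (next library 31.7), 29.1 of Kcnh3 (4.93), 16.9 of Kcnip2 (3.53), 6.39 of Kcnmb4 (0.995) and 4.45 of Kcnj4 (0.588). It also gave 2.35 CPM of Kcng1, 1.33 of Kcnv1, 1.28 of Kcns2 and 0.511 of Kcnb2. Its neuronal marker sum of 2669 CPM stood apart in the same direction, and the part of neuronal RNA was not tested.

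The A-/Pwt/wt library of mouse 223 was the highest of its group for 6 members, with 354.9 CPM of Kcnab2 (next library 166.3), 103.8 of Kcnh3 (44.4), 8.53 of Kcnk9 (3.34), 5.28 of Kcng1, 4.05 of Kcnv1 and 0.578 of Kcnh5. Its neuronal marker sum was 5743 CPM, and that part was not tested either.

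The others were single values. Kcng3, at or near 0 in CD11b+ cells, was at 0.136 CPM in A+/Pki/ki mouse 244, 0.0487 CPM in A+/Pwt/wt mouse 331 and 0.227 CPM in A-/Pwt/wt mouse 236. These 3 values are 3, 1 and 4 counts beside libraries at 0 or 2 counts, where any read stands apart. Without Kcng3, 20 of 162 pairs of a member and a group (12.3%) held such a library. Kcne4 was at 4.63 CPM in CD11b+ cells of A+/Pwt/wt mouse 331 and at 2.40 CPM in cortex of A+/Pki/ki mouse 203. In A+/Pki/ki cortex Kcne2 was at 2.17 CPM in mouse 184 and Kcnh3 at 171.9 CPM in mouse 216. Kcnk9 was at 3.63 CPM in male KI mouse 139.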

How the results depend on the processing

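With 1 library left out, members called ran from 70 to 73 and 68 to 73 in the tissue comparisons (A+/Pwt/wt and A+/Pki/ki), from 16 to 46 in males, and stayed at 0 in both KI comparisons of APP/PS1 mice. For amyloid they ran from 0 to 4 (2 in the main fit), with 5 by DESeq2 and 4 without mice 223 and 245, a choice made after seeing the data. For the difference of KI effects they ran from 0 to 48 (0 in the main fit), with 26 by DESeq2. In the same fits without 1 library, calls over all genes ran from 13628 to 14553 and 13375 to 15400 in the tissue comparisons. They ran from 894 to 5439 in males, 91 to 497 for amyloid and 0 to 6199 for the difference. In the KI comparisons of APP/PS1 mice they ran from 0 to 1 in CD11b+ cells and 0 to 2 in cortex. Kcna3 in A+/Pki/ki, CD11b+ over cortex, was near 0 and changed sign, from 0.04 to −0.19 with total counts and −0.067 with no filter, and from −0.23 to 0.37 with 1 library left out. Kcnk13 for amyloid was −0.017 without mice 223 and 245. In A+/Pwt/wt, CD11b+ over cortex, 2 uncalled members near 0 changed sign with 1 library left out: Kcng4 ran from −0.25 to 0.15 and Kcnj12 from −0.13 to 0.068. Kcnj16 and Kcnk5 passed there with total counts (−0.90 and −1.14) and without mouse 331. The other named members' values computed again kept their direction. Kcnk6 in males missed the threshold with no filter (adjusted p = 0.0544, range over settings 0.00917 to 0.0544 by edgeR, DESeq2 or limma). The causes were not tested. In males, a fit on all groups of the table is the main fit and was not run again. No paired analysis was possible because the groups compared share fewer than 2 mouse numbers. Batch, sex and transgenes differ together between the tables, 1 A-/Pwt/wt cortex library allowed no amyloid test in cortex, and p-values of members with few counts depend on single libraries.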
